A study of Mus musculus with 30 samples.

Results

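The 8 libraries described here are bulk RNA-sequencing libraries of the fibroblast fraction of mouse lung organoid cultures, 4 exposed to the exacerbation cocktail (EC) and 4 exposed to transforming growth factor β (TGF-β), of 30 libraries in all. They were taken as every fibroblast library labelled EC or TGF-β, and form 4 complete pairs by mouse. All cultures held wild-type Epcam+ lung cells of a mouse, mixed 1:1 with the lung fibroblast line CCL206, whose proliferation had been blocked, with 300000 Epcam+ cells seeded. Treatment lasted 72 hours, with EC or with TGF-β at 2 ng/ml, after which the cells were sorted again with Epcam microbeads. EC holds TNF-α, IL-1β, IL-6 and, by the labels, IL-8, for which the study's methods give KC, the protein of the mouse gene Cxcl1, in mouse cultures. The mouse number names the donor of the epithelial cells, and the fibroblasts of every library come from a single cell line, so the spread between replicates does not cover different fibroblast donors. The comparison asks how fibroblasts in contact with epithelium differ between a mixture of inflammatory cytokines and a fibrogenic growth factor. Neither is an untreated state, and the 3 fibroblast vehicle libraries are given beside the results as values, without a test.

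IL-1β and TNF-α signal in fibroblasts through NF-κB, which switches on chemokines, adhesion molecules and its own inhibitors. IL-6 family cytokines signal through STAT3 and raise acute phase proteins. TGF-β signals through Smad2 and Smad3, drives fibroblasts towards contractile myofibroblasts with smooth muscle actin, and raises fibrillar collagens and integrins.

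Total counts lay between 12312269 and 18447405 in 7 libraries and at 5113828 in the EC library of mouse 1. That library also stood apart in its profile: it correlated with the mean of the other EC libraries at r = 0.958 (log2 CPM over 18061 genes), against 0.986 or more for every other library. Results over all genes are therefore given with and without mouse 1. CPM is the count of a gene scaled to the library's total (counts per 1000000). In these bulk libraries, fewer cells of a type and less RNA per cell cannot be told apart. Immune and endothelial markers were low: Ptprc, which marks leukocytes, did not exceed 0.487 CPM and Pecam1, which marks endothelium, did not exceed 2.64 CPM, and 19 of 25 immune markers stayed below 1 CPM in all 8 libraries. The immune list as a whole summed to 242 to 335 CPM in the EC and 27.6 to 40.5 CPM in the TGF-β libraries, against 438 to 577 CPM in the epithelial EC libraries. The 18 endothelial markers summed to 37.5 to 45.8 CPM with EC and 12.5 to 21 CPM with TGF-β. The macrophage marker Adgre1 was at or below 0.06 CPM. Mesothelin (Msln), which lung epithelium can also make, was at 183 to 409 CPM with EC and 102 to 171 CPM with TGF-β. The part of these cell types in the results was not tested.

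The fibroblast reference genes were present in both groups, at a summed 13352 to 21610 CPM with EC and 44586 to 49692 CPM with TGF-β, but the EC libraries also held much epithelial RNA. Epcam, the antigen used for the sort, was at 87.6, 69.7, 69.9 and 111 CPM in the EC libraries of mice 1 to 4 and at 3.57, 8.86, 3 and 9.78 CPM in the TGF-β libraries. Surfactant protein C (Sftpc), made by alveolar type 2 cells, was at 2928, 2312, 1650.5 and 2143 CPM with EC and at 37.2, 274, 80.9 and 134 CPM with TGF-β. The share of epithelial RNA was estimated for each library as a median over 28 to 33 epithelial reference genes, each taken as its CPM divided by that in the epithelial library of the same mouse and treatment. It was 37.3, 41.8, 39.6 and 62.5% in the EC libraries of mice 1 to 4, and 1.35, 3.16, 1.04 and 3.9% in the TGF-β libraries, where the mean of the other epithelial TGF-β libraries stood in for that of mouse 1. The mean was 45.3% ± 11.6 with EC and 2.36% ± 1.39 with TGF-β (SD, n = 4 each). The difference of 43 percentage points was present in 4 of 4 pairs, with p = 0.0286 in a two-sided exact permutation test, the smallest p that 4 against 4 can give. An exact sign-flip test over the 4 pairs gave p = 0.125, again the smallest it allows. The difference in share between these libraries was known before both tests, so their p-values are not independent evidence for it. The fibroblast vehicle libraries of mice 1, 3 and 4 held 17.1, 17.3 and 32.3%.

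Y-linked genes were a second measure, since CCL206 cells had almost none of their transcripts: by these genes the share was 36.6% ± 4.38 with EC and 1.26% ± 0.917 with TGF-β (SD, n = 4 each). In the EC libraries of mice 1 to 4 it was 42.5, 34.5, 32.4 and 37%, so that for mouse 4 it lay well below the 62.5% by reference genes. The ratios were not even across the epithelial reference genes. In the EC libraries their quartiles ran from 24.6 to 56.7% for mouse 1 and from 54.5 to 73.9% for mouse 4, and the highest ratio of any reference gene was 199, 161, 135 and 130%, for Ager, Ager, Sftpc and Abca3. These are alveolar genes. The basal cell keratins Krt5 and Krt15 went the other way, with 0.0542 to 6.1 CPM of Krt5 in the EC fibroblast libraries against 21.2 to 428 CPM in the epithelial EC libraries of the same mice.

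**Figure D1:**
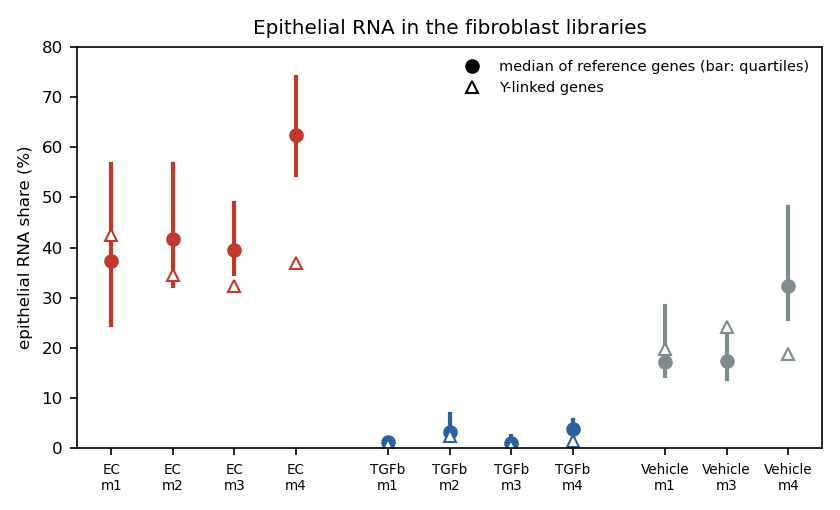
Share of epithelial RNA (percent, vertical axis) in each fibroblast library, by treatment and mouse (m). Circles are the median over the epithelial reference genes with bars from the lower to the upper quartile, and open triangles are the estimate from Y-linked genes. The 4 EC libraries lie at 37.3 to 62.5%, the 4 TGF-β libraries at 1.04 to 3.9%.

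Each gene was therefore tested in 2 ways. The first compared the libraries as they are, with the mouse as a block. The second tested the change beyond the admixture, that is against the count expected from the library's epithelial share, the partner epithelial library and the TGF-β fibroblast level. A log2 fold change beyond the admixture is taken over the expected count, which includes the epithelial part. At a correct share it therefore understates a change within the fibroblasts themselves. Where the share was set too high, a rise of a gene low in epithelium is overstated. With the lower quartile of the ratios as the share, Dkk3 changed by 0.595 and Fst by 0.794, against 0.778 and 0.95 at the median. For genes higher in EC a bound was added: the highest ratio of any reference gene was used in place of the median share for the EC libraries, so that a gene still called was higher than the most over-represented of these 32 to 33 reference genes would make it. Genes outside that list could have higher ratios, and Abca3, which set the bound for mouse 4, also had ratios of 49.8 to 69% in the TGF-β libraries. The fibroblast part of the expected count kept the median share under the bound. For a gene low in epithelium the bound therefore cannot show whether the share was set too high.

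Of 18061 genes, 2643 were called higher (14.6%) and 1530 lower (8.47%) in EC than in TGF-β libraries at an adjusted p below 0.05. Beyond the admixture 316 were called higher (1.75%) and 141 lower (0.781%). Of the 2643 higher genes 233 were also called higher beyond the admixture, and of the 1530 lower genes 138 were also called lower. Of the 316 genes higher beyond the admixture, 83 were not called between libraries, so those calls rest on the expected count. Only 2 genes were called in opposite directions, Krt5 and Krt15, and both calls beyond the admixture were lost without mouse 2 (adjusted p = 0.0721 and 0.249) or mouse 3 (0.164 and 0.169), that of Krt15 also without mouse 4 (0.0529). Of the 316 genes called higher beyond the admixture, 196 were also called under the bound, and 295 had a higher CPM in the fibroblast than in the epithelial EC library in 4 of 4 mice. Without mouse 1 there were 1337 higher and 619 lower calls beyond the admixture, and all 457 calls made with it were among them. Of the 101 called genes described by name, 0 lost their call without mouse 1, 43 without mouse 2, 40 without mouse 3 and 12 without mouse 4. Leaving out mouse 2 or mouse 3 left 99 higher calls each and 45 and 49 lower calls. Of 52 list counts (members higher and members lower in each list), 35 moved by over 1.5 times without mouse 1, 29 without mouse 2, 28 without mouse 3 and 7 without mouse 4. The 37 epithelial reference genes were all called higher between libraries (median log2 fold change 4.69) and 0 of 37 were called beyond the admixture, where their median was 0.37, against 0.04 over all genes. With a mouse left out this did not hold for each of them. Sftpc was called higher without mouse 1 (1.16, adjusted p = 1.9e-05) and without mouse 4 (2.21, adjusted p = 0.0335), and Epcam in neither fit. The reference genes set the share, so these values check the correction and are no result about them.

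**Figure D2:**
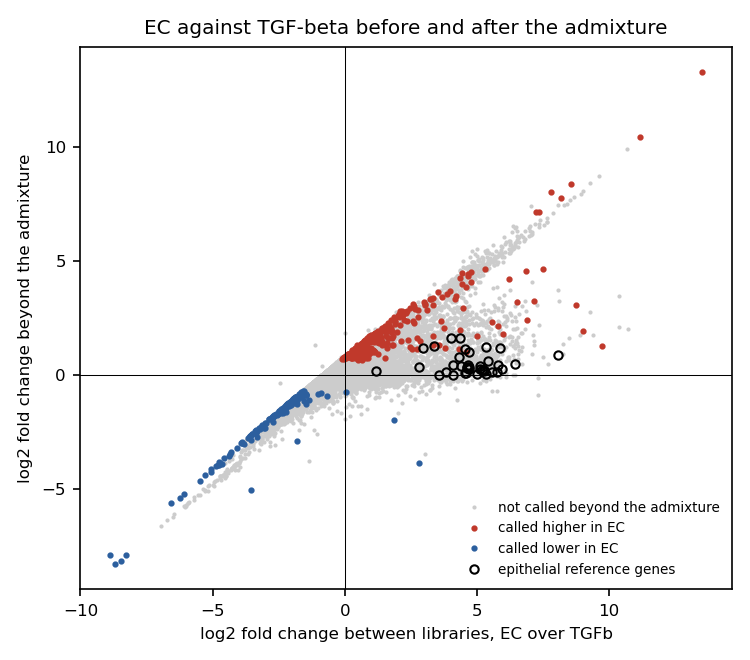
Log2 fold change of EC over TGF-β for each of 18061 genes, between libraries (horizontal axis) and beyond the epithelial admixture (vertical axis). Red and blue points are the 316 genes called higher and the 141 called lower beyond the admixture, and open circles are the 37 epithelial reference genes, which set the share and whose median falls from 4.69 to 0.37.

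Of the 10 leading genes higher with EC, those of smallest adjusted p beyond the admixture among genes called in both tests, 5 were complement genes. The complement cascade is a set of plasma proteases and opsonins that fibroblasts can also make. C1s1, a protease of the classical pathway, was at 660, 643, 524 and 416 CPM in the EC libraries of mice 1 to 4 and at 37.9, 37.9, 31.6 and 30.5 CPM in the TGF-β libraries. The groups did not overlap, and the epithelial EC libraries held 23.1 to 72.8 CPM. Its log2 fold change beyond the admixture was 3.70 ± 0.21 (SE), adjusted p = 9.9e-05. C3, the central component, was at 1433, 2894, 2648 and 2187 CPM with EC and at 20.1, 26.7, 23.5 and 25.9 CPM with TGF-β, a change of 3.21 ± 0.21 (adjusted p = 0.00014). C3 was also high in the epithelial EC libraries (422 to 694 CPM), yet below the fibroblast library of the same mouse in each case. C4b, the C4 component, was at 34.8, 56.8, 52.7 and 42 CPM against 1.46, 1.99, 2.27 and 1.86 CPM (3.86 ± 0.20, adjusted p = 9.9e-05). C1ra, which activates C1s, changed by 3.57 ± 0.21 and Serping1, the inhibitor of both proteases, by 3.21 ± 0.18 (both adjusted p = 9.9e-05). Of 20 tested complement genes 8 were called higher and 0 lower beyond the admixture (median log2 fold change 0.88), and 7 of the 8 held under the bound. Without mouse 1 there were 9, and without mouse 2 or mouse 3 there were 6. C1ra and C1s1 have near-identical copies (C1rb and C1s2), between which the counting could split reads.

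The vehicle libraries set beside these values were close to EC for several of the genes. C1s1 was at 476, 475 and 377 CPM in the vehicle libraries of mice 1, 3 and 4, C1ra at 151, 137 and 134 CPM, and C4b at 85.8, 88.1 and 91.2 CPM, above every EC library. C3 at 1026, 1037 and 1142 CPM lay between both groups. These libraries held less epithelial RNA than the EC libraries. With the epithelial part subtracted, mean C1s1 was 982 CPM with EC, 34.9 with TGF-β and 560 in vehicle, and mean C4b was 83.5, 1.94 and 113 CPM. Over the 316 genes higher beyond the admixture, the subtracted vehicle mean lay nearer to EC for 249 and nearer to TGF-β for 67 on the log2(CPM + 0.5) scale. For 59 of the 316 it lay above the EC mean. Over the 141 lower genes it lay nearer to EC for 131 and nearer to TGF-β for 10.

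Of the rest of the 10 leading genes higher with EC, Serpina3n and Serpina3f are secreted protease inhibitors of an acute phase family with near-identical copies, so their reads may be shared. Serpina3n was at 23.1, 25.7, 18.4 and 16.6 CPM against 0.687 to 0.78 CPM with TGF-β (4.10 ± 0.26, adjusted p = 0.00014), and Serpina3f at 24.9 to 47.8 against 6 to 7.35 CPM. Gas1, a surface protein of growth-arrested cells, was at 171 to 209 against 37.6 to 50.8 CPM (2.67 ± 0.16, adjusted p = 0.00013). Enpp2, the enzyme autotaxin that makes lysophosphatidic acid, was at 163 to 255 against 9.68 to 13.4 CPM (3.45 ± 0.23, adjusted p = 0.00019). Aqp1, a water channel, was at 49.9 to 76.8 against 14.4 to 24.3 CPM. The 10 leading genes were all called under the bound.

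**Figure D3:**
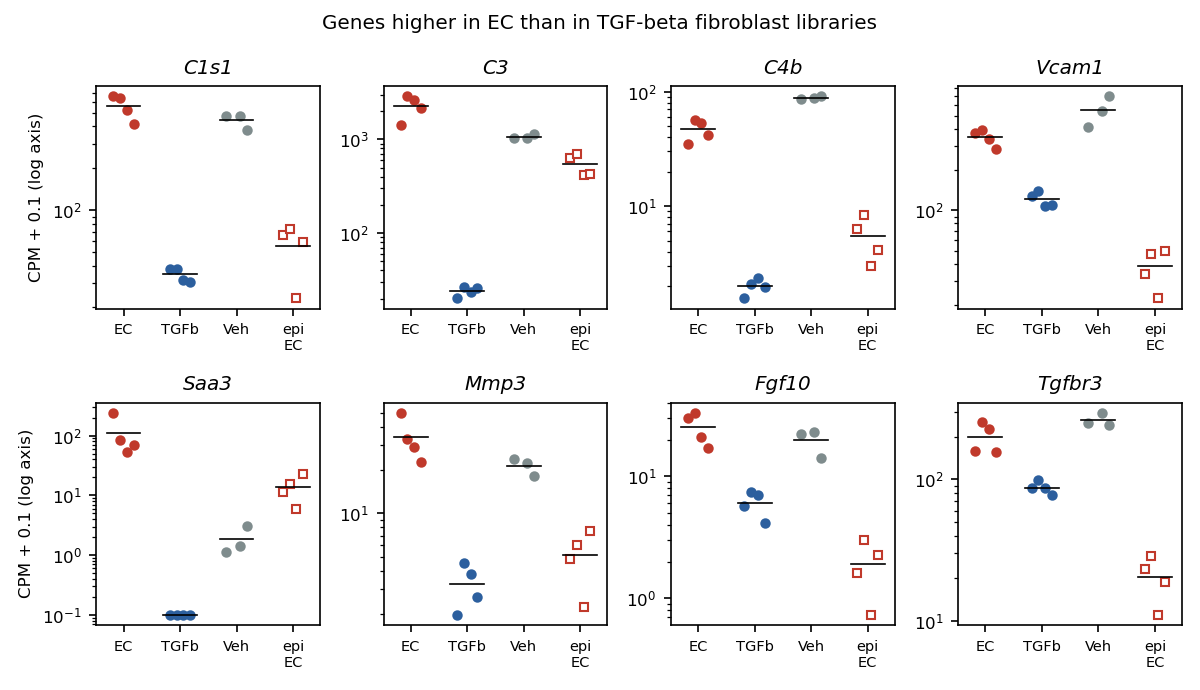
CPM + 0.1 (vertical log axes) of 8 genes called higher with EC in each fibroblast library (filled circles: EC, TGF-β and vehicle) and in the epithelial EC libraries (open squares), with the group mean as a line. For each gene the 4 EC circles lie above the 4 TGF-β circles and above the epithelial EC squares of the same mice. The vehicle circles lie above every EC circle for C4b and Vcam1, and at 1.02 to 2.95 CPM for Saa3.

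Acute phase and antimicrobial proteins had 6 of 16 tested members higher and 0 lower beyond the admixture (median 1.74), of which 3 held under the bound. Without mouse 1, 9 were higher and 1 lower, and without mouse 2 or mouse 3, 3 were higher. Saa3, the serum amyloid A made outside the liver, was at 243, 86.2, 52.4 and 69.7 CPM with EC and had 0 counts in all 4 TGF-β libraries. Against a floor of 3 counts over the TGF-β group (0.0501 CPM) it was at least 1700-fold higher. The vehicle libraries held 1.02, 1.32 and 2.95 CPM and the epithelial EC libraries 5.78 to 23 CPM. Its adjusted p beyond the admixture was 0.0017, and 0.0575 without the mouse as a block. Lbp, which presents endotoxin to its receptor, was at 200 to 280 against 88.9 to 110 CPM (1.74 ± 0.14, adjusted p = 0.00034). Ceruloplasmin (Cp) and the protease inhibitor Slpi were called higher (1.55 ± 0.20 and 2.40 ± 0.45), but neither under the bound, and Slpi was at 248 CPM in the EC library of mouse 1 against 75.3 to 104 CPM in the others. The call of Slpi was lost without mouse 2 or mouse 3 (adjusted p = 0.117 and 0.153).

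Among 27 NF-κB feedback genes and direct targets, 7 were higher and 0 lower beyond the admixture, and 27 of 27 had a positive log2 fold change there (median 0.60), against 9984 of all 18061 genes and 35 of the 37 epithelial reference genes (median 0.37). Without mouse 1, 15 were called higher, and without mouse 2 or mouse 3, 1 was. Vcam1, the adhesion molecule for leukocytes, was at 375, 395, 339 and 286 CPM with EC and 127, 139, 108 and 109 CPM with TGF-β (2.08 ± 0.15, adjusted p = 0.00021). It was higher still in vehicle, at 417, 544 and 700 CPM. It was the single member that held under the bound. Nfkbiz, Tnfaip3 and Sod2, an atypical IκB, a ubiquitin-editing inhibitor of NF-κB and the mitochondrial superoxide dismutase, changed by 0.86 ± 0.14, 0.85 ± 0.15 and 1.30 ± 0.23 (adjusted p = 0.0167, 0.0205 and 0.0216) and were not called higher under the bound. Tnfaip3 was at 55.3 to 132 CPM with EC and at 69.4, 286 and 468 CPM in vehicle. The calls of Nfkbiz, Tnfaip3 and Sod2 were lost without mouse 2 or mouse 3 (adjusted p between 0.126 and 0.237), and that of Tnfaip3 without mouse 4 (0.0658).

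Of the chemokines that draw neutrophils, Cxcl1 was higher in the fibroblast and Cxcl5 in the epithelial EC libraries. Cxcl1 was at 166, 184, 130 and 139 CPM with EC and 3.09, 7.42, 5.82 and 13.8 CPM with TGF-β, with 31.8 to 60.4 CPM in the epithelial EC libraries (2.95 ± 0.39, adjusted p = 0.00466), and was called under the bound. Its vehicle libraries spread widely, at 48.2, 203 and 489 CPM. Cxcl5, of the same CXC family, was at 727, 415, 396 and 589 against 0.429 to 0.687 CPM, but the epithelial EC libraries held 1098 to 1768 CPM, and its change of 1.28 ± 0.22 (adjusted p = 0.0196) was not called under the bound. Between libraries 7 of 7 neutrophil-attracting chemokines were called higher, and 2 of 7 were beyond the admixture (3 without mouse 1, 1 without mouse 2 or mouse 3). Of 16 other chemokines 3 were higher and 1 lower, or 1 and 0 without mouse 2 or mouse 3. Monocyte chemokine Ccl2 was at 402, 293, 266 and 148 against 85.4 to 135 CPM (1.92 ± 0.24, adjusted p = 0.00376), with vehicle at 180.5, 293 and 527 CPM, and Ccl7 at 120, 52.6, 38.1 and 23 against 14.5 to 23.2 CPM (1.98 ± 0.36, adjusted p = 0.0255), where mouse 4 with EC lay within the TGF-β range. Ccl20, which draws lymphocytes and dendritic cells, changed by 3.05 ± 0.50 (adjusted p = 0.0147) and was not called under the bound. Without mouse 2 or mouse 3 the calls of Cxcl5, Ccl7 and Ccl20 were lost (adjusted p between 0.0641 and 0.157), and without the block those of Cxcl5 and Ccl20 (adjusted p = 0.169 and 0.115). Cxcl12, a homeostatic stromal chemokine, fell from 803 to 921 CPM with TGF-β to 213 to 346 CPM with EC (-0.76 ± 0.16, adjusted p = 0.0418). That call was lost without mouse 2, mouse 3 or mouse 4 (adjusted p = 0.255, 0.396 and 0.105), as was that of Cxcl5 without mouse 4 (0.0693).

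IL-6 family and STAT3 feedback genes had 5 of 17 members higher and 0 lower (median 0.78), and 10 higher and 1 lower without mouse 1, 3 higher without mouse 2 or mouse 3. The oncostatin M receptor Osmr was at 108 to 217 against 41.2 to 60.8 CPM (1.73 ± 0.15, adjusted p = 0.0005) and the feedback inhibitor Socs3 at 175 to 256 against 67.8 to 106 CPM (1.61 ± 0.18, adjusted p = 0.00214), both also under the bound. Lifr, the receptor of leukemia inhibitory factor, and the transcription factor Cebpd changed by 1.48 ± 0.16 and 1.71 ± 0.32, without holding there. In the interferon response and MHC class I list 6 of 29 members were higher and 0 lower (median 0.56), and 12 higher without mouse 1, 2 without mouse 2 or mouse 3. The guanylate-binding proteins Gbp2 and Gbp3 (1.44 ± 0.16 and 1.70 ± 0.24), the immunity-related GTPase Iigp1 (2.39 ± 0.34) and B2m, the light chain of MHC class I (1.19 ± 0.20), were among them. Between libraries B2m did not pass the test (0.505, adjusted p = 0.084). Of 15 genes of prostaglandin synthesis and reception 3 were higher and 1 was lower: the prostaglandin E synthase Ptges (1.15 ± 0.17), the prostacyclin receptor Ptgir (1.86 ± 0.30) and the transporter Slco2a1 (1.16 ± 0.19) were higher and thromboxane synthase Tbxas1 was lower (-3.23 ± 0.51). Of the 3 higher genes Ptgir alone held under the bound. No prostaglandin gene was called without mouse 2 or mouse 3. Without mouse 2 the calls of Cebpd, Iigp1, B2m, Ptges, Ptgir, Tbxas1 and Slco2a1 were lost (adjusted p between 0.0579 and 0.228), and without mouse 3 the same except Iigp1, with Gbp3 (between 0.0552 and 0.145). Slco2a1 was also lost without mouse 4 (0.0505).

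Receptors for both treatments were mostly not called beyond the admixture, as were 17604 of all 18061 genes tested. The signalling IL-1 receptor Il1r1 was at 38.3 to 55 CPM with EC and 47.3 to 66.8 CPM with TGF-β (-0.17 ± 0.15, adjusted p = 0.715), its partner Il1rap changed by 0.69 ± 0.20 (adjusted p = 0.16), and the IL-6 receptor chains Il6ra and Il6st by 0.56 ± 0.17 and 0.34 ± 0.19 (adjusted p = 0.173 and 0.503). The TNF receptors Tnfrsf1a and Tnfrsf1b changed by 0.48 ± 0.14 and 0.68 ± 0.15 (adjusted p = 0.164 and 0.0598). The receptors of IL-8 and KC, Cxcr1 and Cxcr2, had 0 counts in the EC libraries and 1 and 4 counts over the TGF-β libraries, and the decoy receptor Il1r2 had 0 and 3 counts. These 3 were not tested. The signalling TGF-β receptors Tgfbr1 and Tgfbr2 changed by -0.12 ± 0.18 and -0.08 ± 0.17 (adjusted p = 0.867 and 0.899), and Acvrl1 and Eng, which serve BMP9, by -0.03 ± 0.14 and 0.15 ± 0.32. The co-receptor Tgfbr3 was the 1 of 11 tested receptors called: it was at 158, 253, 226 and 157 CPM with EC and 86, 98.1, 87.1 and 77.5 CPM with TGF-β (1.80 ± 0.15, adjusted p = 0.00039), with vehicle at 242 to 295 CPM. Without mouse 1, however, Il1rap (0.89, adjusted p = 5.7e-05), Il6ra (0.69), Il6st (0.54), Tnfrsf1a (0.44) and Tnfrsf1b (0.62) were all called higher with EC.

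Of the 10 leading genes lower with EC, Acta2 and Tagln were in the list of contractile genes of the myofibroblast. Tnnt2, a cardiac contractile gene, was also among the 10 but not in that list. Smooth muscle actin (Acta2) was at 33.2, 28.4, 41.2 and 22.8 CPM with EC and at 490, 398, 577 and 340 CPM with TGF-β. The log2 fold change beyond the admixture was -2.95 ± 0.16 (adjusted p = 9.9e-05), and the vehicle libraries held 55.7, 55.9 and 43.5 CPM. Tagln, an actin-binding protein of smooth muscle, was at 5.28, 2.22, 3.16 and 2.28 against 115, 88.8, 121 and 73 CPM (-4.11 ± 0.23, adjusted p = 9.9e-05). Cardiac troponin T (Tnnt2) was at 4.09 to 8.64 against 99.7 to 142 CPM (-3.65 ± 0.19, adjusted p = 9.9e-05). The smooth muscle γ-actin Actg2 and the myosin light chain Myl9 changed by -3.85 ± 0.33 and -1.70 ± 0.15. Of 26 contractile genes 6 were lower and 0 higher (median -0.40), and 24 of 26 had a negative sign. Without mouse 1, 12 were lower and 1 higher, and without mouse 3, 4 were lower. In the TGF-β libraries 4 of the 7 tested smooth muscle and pericyte markers were called higher than with EC between libraries, but Myh11, which defines mature smooth muscle, did not exceed 0.245 CPM.

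Promoters were searched on both strands for letters that NF-κB (GGG and TTCC with any 3 bases between), AP-1 (TGANTCA) and serum response factor (the CArG box) are known to bind. The RefSeq table (GRCm38.p6), which gives 250 bases before to 50 after a gene's start, held 12 of the 20 leading genes, 7 higher and 5 lower. C1s1, Serpina3f, Dmp1 and Tnnt2 have 2 promoters listed there, of which only the first was searched. The NF-κB letters were in 1 of the 7 promoters of higher genes, that of Serpina3n, and in 0 of 5 of lower genes, against 5.56% of all 32851 promoters. The AP-1 letters and the exact CArG box (CC, 6 bases of A or T, GG) were in 0 of 12, against 7.81% and 1.63% of all promoters. With 1 base allowed to differ, the CArG box was in 3 of 12, those of Acta2 (at -84 and -34), Tnnt2 (at -138 and -88) and C3 (at 11), against 21.1% of all promoters. These are counts of letters in a short window. The promoters of the gene with a match and of the leading contractile gene are shown so that both can be read, with the NF-κB match at -171 from the start in capitals. Serpina3n lies at chr12:104406458-104406757 on the plus strand and Acta2 at chr19:34255324-34255623 on the minus strand.
Serpina3n: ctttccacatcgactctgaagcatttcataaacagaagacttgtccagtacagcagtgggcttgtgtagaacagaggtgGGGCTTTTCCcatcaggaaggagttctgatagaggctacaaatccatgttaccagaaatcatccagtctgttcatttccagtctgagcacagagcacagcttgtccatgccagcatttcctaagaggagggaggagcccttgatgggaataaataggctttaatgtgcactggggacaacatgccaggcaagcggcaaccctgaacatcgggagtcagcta
Acta2: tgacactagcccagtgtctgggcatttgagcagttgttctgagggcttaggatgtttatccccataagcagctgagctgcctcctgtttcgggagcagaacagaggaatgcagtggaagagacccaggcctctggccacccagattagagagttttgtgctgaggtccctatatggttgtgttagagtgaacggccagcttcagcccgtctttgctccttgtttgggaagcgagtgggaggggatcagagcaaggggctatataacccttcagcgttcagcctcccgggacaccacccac

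**Figure D4:**
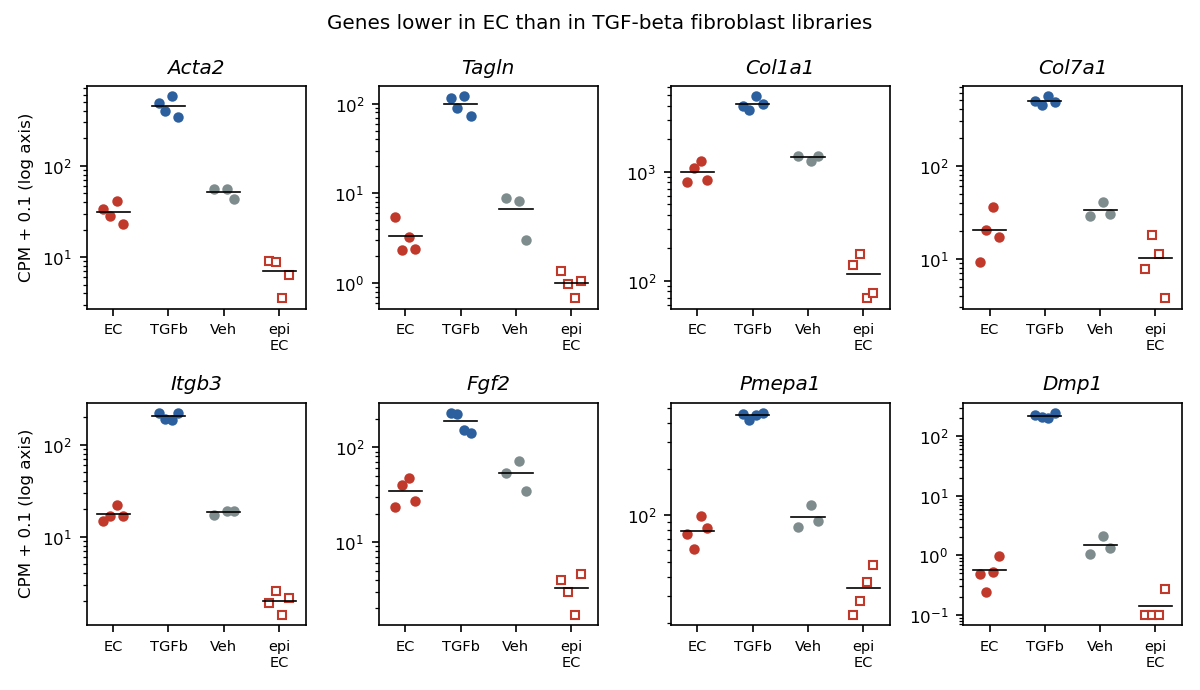
CPM + 0.1 (vertical log axes) of 8 genes called lower with EC in each fibroblast library (filled circles: EC, TGF-β and vehicle) and in the epithelial EC libraries (open squares), with the group mean as a line. The 4 TGF-β circles lie above all EC and vehicle circles for each gene, as for Acta2 at 340 to 577 CPM against 22.8 to 41.2 CPM with EC.

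Collagens moved in both directions. The fibrillar chain Col1a1 was at 799, 1073, 1244 and 835 CPM with EC and at 3985, 3672, 4915 and 4125 CPM with TGF-β (-1.22 ± 0.17, adjusted p = 0.00586), a call that was lost without mouse 2 or mouse 3 (adjusted p = 0.0806 and 0.0873). Col7a1, the anchoring fibril collagen of the basement membrane zone, was at 8.99, 19.9, 35.4 and 16.8 against 493, 443, 557 and 476 CPM (-3.82 ± 0.27, adjusted p = 0.00021), and Col5a3 changed by -2.35 ± 0.26 (adjusted p = 0.00214). The beaded filament chains Col6a1 and Col6a2 were the 2 collagens higher with EC: Col6a1 was at 194, 314, 295 and 260 against 88.6, 113, 128 and 120 CPM (1.84 ± 0.14, adjusted p = 0.00029), with vehicle at 416 to 586 CPM, and Col6a2 at 58.7 to 91.1 against 29.3 to 40.5 CPM (1.75 ± 0.15). Both held under the bound. The third chain of the same filaments, Col6a3, was lower with EC between libraries (-2.04, adjusted p = 0.00021) and was at -1.14 beyond the admixture, which did not pass the test (adjusted p = 0.0992). In all 6 of 27 tested collagens were lower (median -0.33), without mouse 1 there were 11 lower and 6 higher, and without mouse 2 or mouse 3 there were 3 lower and 2 higher. Among 23 crosslinking and processing genes 3 were higher (9 without mouse 1) and 1 was lower, the last being the lysyl oxidase Loxl3 (-0.69 ± 0.14). The higher genes were the prolyl hydroxylases P4ha2 and P3h3 (0.80 ± 0.14 and 0.74 ± 0.14) and transglutaminase Tgm2 (0.74 ± 0.15). Between libraries P3h3 and Tgm2 did not pass the test (-0.08 and 0.04, adjusted p = 0.764 and 0.894), so their calls rest on the expected count, while P4ha2 was called (0.65, adjusted p = 0.00792). Under the bound P3h3 held, Tgm2 did not (0.29, adjusted p = 0.259), and P4ha2 turned sign (-0.20). With the lower quartile of the ratios as the share, P3h3 and Tgm2 lost their calls (adjusted p = 0.106 and 0.111). Without mouse 2 or mouse 3 none of the crosslinking genes was called (adjusted p of these 4 between 0.172 and 0.401), and without mouse 4 the calls of P3h3, Tgm2 and Loxl3 were lost (between 0.0849 and 0.131).

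Elastic fibre genes divided likewise, 3 of 14 higher and 3 lower (4 and 5 without mouse 1, 1 and 2 without mouse 2 or mouse 3). Fibrillin-1 (Fbn1), the microfibril protein, was at 59.1, 220, 269 and 158 CPM with EC and 826 to 1157 CPM with TGF-β (-1.84 ± 0.35, adjusted p = 0.0301, but 0.151 without mouse 2 and 0.093 without mouse 3), fibulin-5 (Fbln5) at 12.7 to 16.6 against 63.7 to 75.3 CPM (-1.34 ± 0.15), and elastin itself (Eln) was low, at 0 to 0.365 against 2.35 to 3.49 CPM. Emilin2 was at 44.7 to 65.5 against 18.4 to 20.2 CPM (2.06 ± 0.15, adjusted p = 0.00025) and Ltbp2, a fibrillin-binding protein, changed by 1.25 ± 0.19. Between libraries Ltbp2 did not pass the test (0.494, adjusted p = 0.0742). Of 29 proteoglycans and matrix glycoproteins 5 were higher and 3 lower, or 11 and 6 without mouse 1, 3 and 0 without mouse 2 and 3 and 1 without mouse 3. Decorin (Dcn), which binds collagen and TGF-β, was at 361, 321, 289 and 242 against 134, 168, 174 and 144 CPM (1.61 ± 0.17, adjusted p = 0.0017), tenascin-X (Tnxb) at 6.65 to 22.5 against 1.46 to 4.04 CPM (3.04 ± 0.22) and laminin α4 (Lama4) at 29.9 to 52.8 against 10.1 to 15.1 CPM (2.01 ± 0.20), all held under the bound. Periostin (Postn), a matricellular protein of fibrosis, was at most 0.243 CPM with EC and 2.34 to 4.22 CPM with TGF-β (-4.25 ± 0.68, adjusted p = 0.0136). Without mouse 2 the calls of Eln, Ltbp2 and Postn were lost (adjusted p = 0.143, 0.127 and 0.117), and without mouse 3 that of Ltbp2 (0.108).

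Integrin β3 (Itgb3), a chain of receptors for vitronectin, was at 14.7, 16.6, 21.9 and 16.6 CPM with EC and 222, 190, 187 and 222 CPM with TGF-β (-2.66 ± 0.17, adjusted p = 0.00014). Integrin β5 (Itgb5), which can release latent TGF-β, changed by -1.05 ± 0.14 and the collagen-binding Itga11 by -1.86 ± 0.35, while the leukocyte chain Itgb2 was higher by 0.95 ± 0.15. Between libraries Itgb2 did not pass the test (0.235, adjusted p = 0.345), so its call rests on the expected count. Of 19 integrins 3 were lower and 1 higher, or 4 and 5 without mouse 1 and 1 and 0 without mouse 2 or mouse 3. Among 29 immediate TGF-β targets and feedback genes, 16 were called lower with EC between libraries and 1 beyond the admixture: Pmepa1, which limits Smad activation, at 75.5, 60.3, 99.7 and 82.1 against 459, 416, 447 and 466 CPM (-1.70 ± 0.16, adjusted p = 0.00093). Ltbp2 and Id3, an inhibitor of basic helix-loop-helix factors (1.37 ± 0.23), were the 2 higher. Without mouse 1 there were 6 lower and 5 higher, and without mouse 2 or mouse 3, 1 lower and 0 higher. Of 22 TGF-β ligands, receptors and latency proteins 3 were higher and 2 lower (7 and 4 without mouse 1, 1 and 0 without mouse 2 or mouse 3), among the lower Itgb5 and the activin chain Inhba (-1.08 ± 0.17). The calls of Itgb5, Itga11, Itgb2, Id3, Ltbp2 and Inhba were lost without mouse 2 (adjusted p between 0.0782 and 0.152) or mouse 3 (between 0.0572 and 0.187).

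Some of the 10 leading genes lower with EC are not known chiefly as smooth muscle or collagen genes. Dmp1, a mineral-binding matrix protein of bone and dentin, had the largest decrease of the 10, at 0.391, 0.143, 0.426 and 0.867 CPM with EC against 224, 207, 204 and 249 CPM with TGF-β (-7.91 ± 0.36, adjusted p = 9.9e-05), and the vehicle libraries held 0.944 to 2.01 CPM. Sema7a, a membrane-anchored semaphorin, was at 6.17 to 11.7 against 162 to 181 CPM (-3.57 ± 0.22). Atp6v0d2, a proton pump subunit known from osteoclasts, was at 0.271 to 0.43 against 8.58 to 21.8 CPM (-4.39 ± 0.29), Nrep at 4.39 to 7.24 against 36.9 to 83.6 CPM (-2.53 ± 0.18), and the engulfment receptor Megf10 at 5.28 to 11.3 against 145 to 203 CPM (-3.38 ± 0.27). The mesenchymal cadherin Cdh11 was at 29.1 to 46.9 against 243 to 340 CPM (-2.09 ± 0.20, adjusted p = 0.00079).

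Matrix proteases and their inhibitors had 11 of 30 tested members higher with EC and 1 lower (median 0.42), of which 8 held under the bound. Without mouse 1 there were 15 higher and 6 lower, without mouse 2, 7 higher, and without mouse 3, 4 higher. Stromelysin Mmp3 was at 50.1, 32.7, 28.8 and 22.8 CPM with EC and 1.87, 4.4, 3.68 and 2.52 CPM with TGF-β (3.06 ± 0.37, adjusted p = 0.00307). Gelatinase Mmp9 was at 20.9, 30.1, 36 and 24.9 against 7.39, 10.2, 11.1 and 8.94 CPM (2.16 ± 0.17, adjusted p = 0.00031), and the versican-cleaving Adamts1 at 141 to 245 against 38.5 to 76.8 CPM (2.04 ± 0.16). Mmp11 changed by 1.17 ± 0.14. The inhibitor Timp1 was the lower member, at 122.6, 64.7, 71.9 and 59.1 against 240 to 290 CPM (-0.96 ± 0.17, adjusted p = 0.0225). In vehicle Mmp3 was at 18.1 to 23.6 CPM and Timp1 at 72.4 to 85.7 CPM, both near EC. The call of Timp1 was lost without mouse 2, mouse 3 or mouse 4 (adjusted p = 0.237, 0.199 and 0.0578).

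Growth factors that support lung epithelium included 6 of 30 members higher and 1 lower, or 11 and 3 without mouse 1, 3 and 0 without mouse 2 and 3 and 1 without mouse 3. Fgf10, the ligand of the epithelial receptor Fgfr2 that drives lung branching, was at 29.9, 33.3, 21.1 and 16.9 CPM with EC and 5.6, 7.28, 6.92 and 4.08 CPM with TGF-β (2.61 ± 0.20, adjusted p = 0.00031). Fgf7, which acts on the same receptor, was at 165, 144, 118 and 66.3 against 74.2, 88.8, 65.2 and 48 CPM (1.40 ± 0.16, adjusted p = 0.00224): each pair was higher, but mouse 4 with EC lay within the TGF-β range. Hgf, the ligand of Met, was at 113 to 178 against 46.6 to 87.5 CPM (1.66 ± 0.20, adjusted p = 0.00249). All 3 held under the bound. Fgf2, a mitogen for fibroblasts, fell to 23.5, 40, 47.6 and 27.3 CPM with EC from 232, 227, 153 and 140 CPM (-1.56 ± 0.24, adjusted p = 0.0123, but 0.11 without mouse 2). Vehicle Fgf10 was at 22.3, 23.1 and 14.1 CPM and vehicle Fgf2 at 34.2 to 71.6 CPM.

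The 6 growth factors that the study named from these cultures were all called higher with EC between libraries, against 14.6% of all genes. Beyond the admixture 0 of 6 were called, against 1.75% of all genes higher and 0.781% lower. With so few calls over all genes, 0 of 6 is no result about these factors. The study drew that list from fibroblasts of EC against vehicle cultures, a different contrast from EC against TGF-β. The EC libraries used here entered that choice, so the direction of the list between libraries is not independent evidence. Il33, an alarmin, was at 107, 146, 105 and 166 CPM in the EC fibroblast libraries, 0.893 to 3.71 CPM in the TGF-β libraries and 298 to 401 CPM in the epithelial EC libraries, and its change beyond the admixture was 0.08 ± 0.20 (adjusted p = 0.947). The EGF receptor ligands Areg and Tgfa were at 73.4 to 105 and 9.78 to 30.2 CPM with EC, against 150 to 210 and 37.2 to 61.7 CPM in the epithelial EC libraries, and changed by 0.00 ± 0.20 and 0.15 ± 0.39 (adjusted p = 0.999 and 0.928). Artn, a neurotrophic factor, Pthlh, the parathyroid hormone-like hormone, and Ptn, a heparin-binding factor, changed by 0.52 ± 0.38, 1.47 ± 0.67 and 1.21 ± 0.35 (adjusted p = 0.641, 0.404 and 0.144). Ptn was at 4.66 to 13.7 CPM with EC against 2.29 to 3.2 CPM in the epithelial EC libraries, and at 20.3 to 33.1 CPM in vehicle. Without mouse 1, Pthlh and Ptn were called higher (2.59 and 0.82, adjusted p = 0.00669 and 0.0223), and the other 4 were not. With DESeq2 on all 4 pairs Ptn was also called higher (1.22, adjusted p = 0.0287).

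Of 22 Wnt ligands and antagonists 3 were higher and 0 lower (7 and 2 without mouse 1, 2 and 0 without mouse 2 or mouse 3): the antagonist Sfrp1 at 30.4 to 41.6 against 13 to 21 CPM (1.71 ± 0.16), Wnt6 at 13.6 to 23.5 against 7.08 to 11.3 CPM (1.70 ± 0.20), and Dkk3 (0.78 ± 0.15), each also under the bound. In the list of 22 BMP ligands, antagonists and Id genes 3 were higher (10 without mouse 1, 0 without mouse 2 or mouse 3), Id3, Bmp3 (1.72 ± 0.32) and the activin antagonist Fst (0.95 ± 0.19), of which Bmp3 did not hold there. Between libraries Dkk3 and Fst did not pass the test (-0.04 and 0.24, adjusted p = 0.891 and 0.403), so their calls rest on the expected count. With the lower quartile of the ratios as the share, both calls were lost (adjusted p = 0.0775 and 0.0602). Of 13 IGF axis genes (3 higher and 2 lower without mouse 1, 0 called without mouse 2 or mouse 3) Stc1, a secreted glycoprotein, was higher (1.57 ± 0.27) and Igfbp7 lower (-0.97 ± 0.16). The calls of Dkk3, Id3, Bmp3, Fst, Stc1 and Igfbp7 were lost without mouse 2 (adjusted p between 0.0843 and 0.271) or mouse 3 (between 0.0762 and 0.223), and those of Dkk3 and Bmp3 without mouse 4 (0.0933 and 0.0649).

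Of 35 DNA replication and mitosis genes 22 were called higher with EC between libraries (median 0.57), and 0 beyond the admixture (median -0.21), where 3 were lower without mouse 1. Top2a, which untangles chromosomes, and Mki67, a proliferation marker, changed by -0.31 ± 0.18 and -0.41 ± 0.28 (adjusted p = 0.524 and 0.626). Cholesterol and fatty acid synthesis had 17 of 29 members higher between libraries and 0 beyond the admixture (2 without mouse 1). Of 26 glycolysis and hypoxia genes 17 were higher between libraries and 3 beyond the admixture: the vasodilator peptide Adm (1.58 ± 0.20), Pdk1, which restrains mitochondrial pyruvate use (1.05 ± 0.15), and the glucose transporter Slc2a1 (0.68 ± 0.15), of which Adm held under the bound. There were 11 higher and 1 lower without mouse 1 and 1 higher without mouse 2 or mouse 3. Of 22 p53 targets the death receptor Fas was higher (1.65 ± 0.19) and Pmaip1, which promotes apoptosis, lower (-1.08 ± 0.16), with 3 and 2 called without mouse 1. The macrophage lysozyme Lyz2, also made by alveolar type 2 cells, was the single immune marker called (1.70 ± 0.36, adjusted p = 0.0464), and it did not hold under the bound. Without mouse 2 or mouse 3 the calls of Pdk1, Slc2a1, Pmaip1 and Lyz2 were lost (adjusted p between 0.0834 and 0.354), and that of Slc2a1 also without mouse 4 (0.0971).

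**Figure D5:**
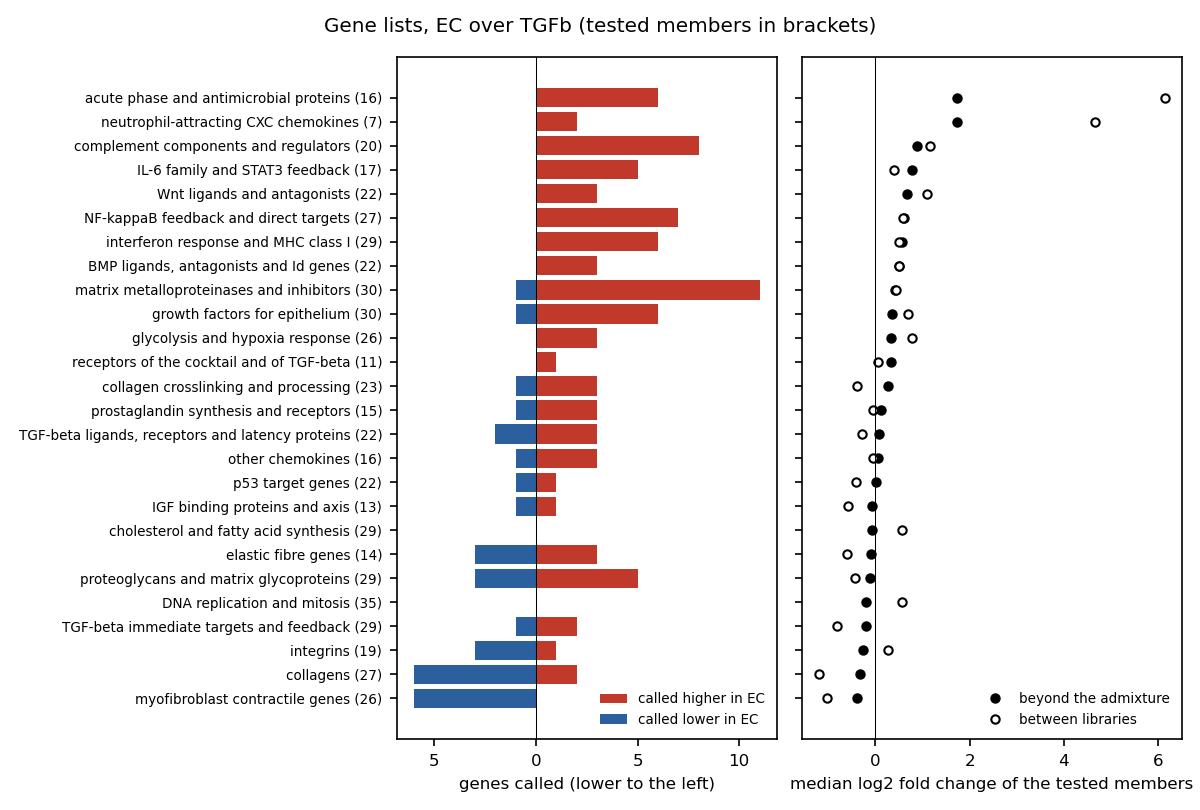
Left, number of members of each gene list called higher (red, to the right) and lower (blue, to the left) with EC beyond the admixture, with the number tested in brackets. Right, median log2 fold change of the tested members beyond the admixture (filled) and between libraries (open). Contractile genes and collagens lie at the lower end (medians -0.40 and -0.33), acute phase proteins at the upper end (1.74).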

How the data were processed

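Counts per gene (55487 Ensembl genes with symbols) were deposited by the authors for each library as raw counts. Reads were trimmed with Trimmomatic 0.30, per the submitters' processing notes; the aligner and counter are not given in the sources used here, and the genome build is given as GRCm39 in the labels and as GRCm38 in the study's methods. Genes with a mean count below 1 over the 8 libraries were left out, and 18061 were tested with edgeR 4.0.16 (quasi-likelihood, TMM, R 4.3.3) with the mouse as a block and Benjamini-Hochberg adjustment at 0.05. For the second test the expected count of each gene was entered as an offset: share × partner epithelial CPM plus (1 − share) × mean TGF-β fibroblast CPM with the epithelial part removed, plus 0.1 CPM. Reference genes for the share had at least 50 CPM in the partner. The mouse is the shared epithelial donor. Deviations from the group means of same-mouse libraries correlated at 0.05 to 0.17 (mean 0.12, and -0.04 between mice). No 2 replicates agreed within sampling noise.

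The libraries and gene lists were chosen with earlier results of these data known. Genes named were the 10 in each direction with the smallest adjusted p beyond the admixture called in both tests, with log2 fold changes past 1 in size in each and 4 of 4 pairs moving alike (165 and 113 qualified), up to 4 called members of each list (without calls, the 2 highest), the receptors, and the study's growth factors. Timp1, Fbn1, Krt15, Tnfrsf9, Nos2, Hsd11b1 and Adamts7 were added after their values were seen. Alternatives included DESeq2 1.42.0, limma 3.58.1, other filters, scalings and shares, and leaving out each mouse. The scripts were tested on simulated data. Both the fibroblast vehicle library of mouse 2 and the epithelial TGF-β library of mouse 1 are not analysed here.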

Additional observations from a re-analysis of the deposited data

Results flagged for a closer look

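A sample far from the other 3 of its group was found in 10 of 246 groups screened, where chance flags about 1 in 20. In the EC library of mouse 1 Tgfbr2 was at 125 CPM (214 to 229 in the others), Top2a at 246 CPM (389 to 410), Cebpd at 114 CPM (73.1 to 77.3) and Slpi at 248 CPM (75.3 to 104). In the other EC libraries Ptgir was at 11.8 CPM in mouse 2 (6.65 to 7.43), Igfbp7 at 96.1 CPM in mouse 3 (74.5 to 77.4) and Itgb5 at 150 CPM in mouse 4 (179 to 181). In the TGF-β libraries Eln was at 2.35 CPM in mouse 1 (3.43 to 3.49), Tnnt2 at 99.7 CPM in mouse 2 (136 to 142) and Lama4 at 10.1 CPM in mouse 4 (14.4 to 15.1).

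For 16 of 121 genes every fibroblast pair moved one way between EC and TGF-β and every epithelial pair of mice 2, 3 and 4 the other way, and the difference was not tested. Over all 18061 genes tested 800 (4.43%) did so, and the 121 were mostly chosen for their change in fibroblast libraries. As mean log2(CPM + 0.5) differences of EC minus TGF-β, fibroblast first, these were Vcam1 1.52 and -1.20, Tnfaip3 0.78 and -1.62, Ccl2 1.27 and -0.82, Gbp2 0.89 and -0.82, Mmp11 0.49 and -1.48, Slco2a1 2.61 and -1.62, Col6a1 1.23 and -1.0, Col6a2 1.12 and -1.12, P4ha2 0.67 and -0.25, Itgb2 0.26 and -0.58, Fgf7 0.79 and -1.07, Sfrp1 1.14 and -0.60, Bmp3 4.07 and -0.80, Adm 0.98 and -0.98, Tgfbr1 0.81 and -0.58 and Epcam 3.78 and -0.62. The fibroblast differences are between libraries as they are, so they include the epithelial RNA of the EC libraries. Beyond the admixture Tgfbr1 (-0.12) and Epcam were not called, while the others were called higher. The epithelial TGF-β libraries held 1090 to 1182 CPM of Col1a1, a fibroblast reference gene. Whether it came from fibroblast RNA or from the epithelial cells was not tested. The part in these differences of epithelial RNA in fibroblast libraries, or of any fibroblast RNA in epithelial libraries, was not tested either.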

How the results depend on the processing

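Calls beyond the admixture (316 higher, 141 lower) ranged from 144 to 1956 with a mouse left out, 99 to 1337 higher and 45 to 619 lower. DESeq2 gave 891 calls (627 higher, 264 lower), no filter on low counts 704 (496 higher), the upper quartile of the share 528 higher calls, and subtraction of the epithelial part followed by a test of the remainder 14 (10 higher, 4 lower). Between libraries the calls (2643 higher, 1530 lower) ranged from 2535 to 6309 with a mouse left out, 1707 to 3583 higher and 828 to 2726 lower. Scaling to fibroblast reference genes gave 11980 calls (11713 higher, 267 lower) and moved the median of all genes to a log2 fold change of 1.03, and a fit over all 15 fibroblast libraries gave 6423 (2818 lower). The difference in epithelial share lay between 37.7 and 45.3 points with a mouse left out, where a two-sided exact permutation test of 3 against 3 cannot go below p = 0.1.

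Of the 101 called genes named, none was lost with DESeq2, 88 were lost under subtraction (which left 13), 7 or fewer under other shares, filters or centring, and 43, 40 and 12 without mouse 2, 3 and 4. Without mouse 4 these were Tnfaip3, Cxcl5, Cxcl12, Timp1, Slco2a1, P3h3, Tgm2, Loxl3, Dkk3, Bmp3, Slc2a1 and Krt15. The 20 leading genes kept their calls without each mouse. Under subtraction Serpina3f, Aqp1, Sema7a, Itgb3, Atp6v0d2, Col7a1, Nrep and Megf10 of them lost theirs (adjusted p between 0.0565 and 0.255). Without the replicate block 559 genes were called (395 higher, 164 lower), 421 of them shared, and the calls of Cxcl5, Ccl20, Saa3 and Slco2a1 were lost (adjusted p = 0.169, 0.115, 0.0575 and 0.192), while Tnfrsf1b was called (0.0364). The pairing changed no other call of a named gene. Of 52 list counts, 47 stayed within 1.5 times without the block and 32 with DESeq2.

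Signs turned for 9 genes that were not called and, under the bound, for 8 that were called higher, and the cause was not tested. With a mouse left out Tgfbr1 ranged from -0.169 to 0.002, Tgfbr2 from -0.188 to 0.068, Acvrl1 from -0.092 to 0.036, Areg from -0.202 to 0.152, Il33 from -0.067 to 0.186, Tgfa from -0.054 to 0.35 and Epcam from -0.05 to 0.252. With the lower quartile of the share Tgfbr1 was at 0.026 and Eng at -0.037, and with the upper quartile Acvrl1 at 0.323 and Areg at -0.335. Areg was at -0.005 at a mean count of at least 10, -0.028 without centring and -2.06 under subtraction, where Pthlh was at -1.64. Under the bound, chosen after seeing the data, which called 273 genes higher, the values of Tnfaip3 (-0.266), Sod2 (-0.016), Cxcl5 (-0.493), Ptges (-0.407), Slco2a1 (-0.486), P4ha2 (-0.199), Pdk1 (-0.055) and Slc2a1 (-0.356) turned; by construction it raises the expected count. The depth of 5113828 counts in the EC library of mouse 1 limits low genes there.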

Other observations

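Among genes higher beyond the admixture whose vehicle level lay nearer to TGF-β, 4 not covered by the gene lists were chosen after their values were seen. Tnfrsf9, the costimulatory receptor 4-1BB, was at 685, 446, 405 and 345 CPM in the EC libraries of mice 1 to 4, 87.1 to 108 CPM in the TGF-β libraries, 204 to 224 CPM in vehicle and 19.2 to 57.2 CPM in the epithelial EC libraries (log2 fold change 2.64 ± 0.23, adjusted p = 0.00056). Hsd11b1, which reactivates glucocorticoids, was at 14.4 to 29.5 CPM with EC, 2.08 to 4.46 CPM with TGF-β and 8.73 to 9.8 CPM in vehicle (2.94 ± 0.30, adjusted p = 0.00116). Adamts7, a matrix protease, was at 82.7 to 160 CPM with EC, 47.2 to 66.5 CPM with TGF-β and 36.9 to 64.8 CPM in vehicle (1.82 ± 0.15, adjusted p = 0.00043). Nos2, the inducible nitric oxide synthase, was low, at 1.84 to 5.67 CPM with EC, with 0 counts in all 4 TGF-β libraries and in 2 of 3 vehicle libraries, and its call was lost without mouse 2 or mouse 3.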
